A study of Mus musculus with 10 samples.

Results

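The genes described here carry antigen presentation by the major histocompatibility complex (MHC) in the mouse proximal jejunum. They were all protein-coding genes whose symbol begins with H2-, the name of the mouse MHC, plus Cd74, Ciita, Nlrc5, B2m, Tap1, Tap2, Tapbp, Psmb8 and Psmb9. This gave 33 of the 24368 genes in the deposited table, of which 15 were class I heavy chain genes, 9 were class II genes and 9 were the accessory genes. The choice used names only, not measured values. RNA sequencing was done on total RNA of the upper jejunum from 5 mice labelled cKO, in which the RNA-binding protein HuR (gene Elavl1) was deleted in the intestinal epithelium, and from 5 littermates labelled WT. Each library is 1 sample in the labels. The libraries were numbered 1 to 5 for cKO and 1, 3, 4, 5 and 6 for WT. The sources used here give neither the Cre driver nor the deleted exons, and no strain, age or sex.

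Class I molecules are a heavy chain paired with beta-2 microglobulin, and nearly all nucleated cells use them to show fragments of their own proteins to CD8 T cells. The immunoproteasome cuts those fragments, the TAP transporter pumps them into the endoplasmic reticulum and tapasin helps load them. Class II molecules are pairs of an alpha and a beta chain that show fragments of ingested proteins to CD4 T cells, with the invariant chain Cd74 filling the groove until the DM molecule exchanges it for a peptide. Dendritic cells, macrophages and B cells carry class II, and the enterocytes of the small intestine also make it, under the control of the transactivator Ciita. Its relative Nlrc5 does the same for class I genes.

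Both classes are known to be switched on through a shared promoter layout, an S-X-Y module, with an interferon response element and, in some class I genes, a kappa B site. The promoters of H2-K1 and B2m, which encode the 2 chains of one class I molecule, are shown because the results set these chains side by side. Those of H2-Aa and H2-Eb1, an alpha and a beta chain of different class II pairs, are shown as examples of class II. Each is the stretch just before the RefSeq gene start in GRCm38.p6, 5′ to 3′ along the gene, and capitals mark the letters searched for on either strand: ATTGG (Y box), AGCAAC (core of the X1 box), TGACG (core of the X2 box), TTTCNNTT (core of the interferon response element) and, in H2-K1, the 10 letters of a kappa B site (enhancer A).
H2-K1 (chr17:34000348-34000597, reverse strand): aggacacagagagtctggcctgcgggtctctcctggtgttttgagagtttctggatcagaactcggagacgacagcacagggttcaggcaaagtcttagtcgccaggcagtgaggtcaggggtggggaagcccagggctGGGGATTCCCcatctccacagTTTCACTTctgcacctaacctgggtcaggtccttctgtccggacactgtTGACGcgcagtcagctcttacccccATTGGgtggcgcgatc
B2m (chr2:122147437-122147685, forward strand): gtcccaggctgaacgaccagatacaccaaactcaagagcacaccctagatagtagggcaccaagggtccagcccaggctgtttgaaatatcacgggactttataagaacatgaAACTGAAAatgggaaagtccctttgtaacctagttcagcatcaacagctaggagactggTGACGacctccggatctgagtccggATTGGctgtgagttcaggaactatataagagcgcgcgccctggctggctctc
H2-Aa (chr17:34287828-34288073, reverse strand): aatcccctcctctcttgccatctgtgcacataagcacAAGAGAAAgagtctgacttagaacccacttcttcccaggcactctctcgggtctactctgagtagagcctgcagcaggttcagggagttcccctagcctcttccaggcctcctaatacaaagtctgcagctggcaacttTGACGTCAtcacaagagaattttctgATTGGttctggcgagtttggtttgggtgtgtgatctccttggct
H2-Eb1 (chr17:34305617-34305866, forward strand): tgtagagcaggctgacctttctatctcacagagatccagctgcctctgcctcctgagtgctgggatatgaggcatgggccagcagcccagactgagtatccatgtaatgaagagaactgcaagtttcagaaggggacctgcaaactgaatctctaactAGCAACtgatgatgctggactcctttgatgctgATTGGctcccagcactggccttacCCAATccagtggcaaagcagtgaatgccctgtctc
A RefSeq promoter was available for 26 of the 33 genes, and among class II genes only H2-Ab1 had none. A gene was counted when any of its windows of up to 250 bases held the letters. The shares over all promoters count each window by itself, so a gene with several windows had more chances of a match. ATTGG was present for 8 of 8 class II genes, 11 of 13 class I genes and 4 of 5 accessory genes, against 33.8% of 32851 promoters. TTTCNNTT was present for 12 of 13 class I genes and 3 of 8 class II genes, against 21.3% of all promoters. TGACG was found for 7 of 13 class I genes, 1 of 8 class II genes and 3 of 5 accessory genes, against 17.8%. AGCAAC was found for 4 class II genes (H2-Eb1, H2-Eb2, H2-Oa and H2-Ob) and for none of the 13 class I genes, against 12.2%. The rare kappa B letters, in 0.0852% of all promoters, stood before 4 class I genes, H2-K1, H2-D1, H2-Q6 and H2-Q7. Before H2-Aa, TGACG on the 2 strands overlaps in TGACGTCA. These matches describe the letters in the windows and carry no information on binding.

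The values are normalised reads, that is, the reads of a gene after scaling each library by its own size factor. Recovered reads per library ran between 16063987 (cKO 1) and 18927440 (cKO 5). Elavl1 counted over the whole gene stood at 556 to 725 normalised reads in cKO and 631 to 709 in WT, so the count does not separate the labels, and a count over all exons does not show which exons were removed. Several libraries stood apart. The clock gene Per2 was at 12.7 in cKO 3 and 16.0 in cKO 5, against 342 to 526 in the other 3 cKO libraries and 529 to 749 in WT. Mitochondrial genes took 9.48% of the values in cKO 1 and 2.69% to 6.09% in the other 9 libraries. The B cell marker Ms4a1 stood at 517 in WT 5 and at no more than 28.4 in any other library. Many class I genes are near-identical copies and the sources used here state neither the strand setting nor the handling of reads with several matches, so their split between paralogs is uncertain.

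MHC transcripts were among the most abundant in the tissue. Levels between genes are compared here as normalised reads per kilobase of gene length. B2m, the shared light chain of class I, averaged 82390 per kilobase in cKO and 87383 in WT, which ranked 9 of the 14062 genes tested in WT. Cd74, the invariant chain, averaged 23321 in cKO and 30700 in WT (rank 31). The class I heavy chain H2-K1 averaged 19115 in cKO and 27064 in WT (rank 39), and H2-D1, the other classical class I heavy chain, 13175 in cKO and 16103 in WT (rank 62). The class II genes followed closely, with H2-Aa at 14629 in cKO and 14619 in WT (rank 71), H2-Ab1 at 8329 in cKO and 11824 in WT (rank 85), and H2-Eb1 at 6877 in cKO and 6500 in WT (rank 146). The regulators were far lower, with Ciita at 47.1 in cKO and 55.3 in WT and Nlrc5 at 51.9 in cKO and 55.1 in WT. In each library 3 heavy chains, H2-K1, H2-D1 and H2-Q2, gave most of the class I signal, with median shares over the 10 libraries of 40.9%, 26.5% and 18.0% of the class I sum per kilobase. Among class II genes H2-Aa had a median share of 39.98%, H2-Ab1 of 30.7% and H2-Eb1 of 19.7%.

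**Figure D1:**
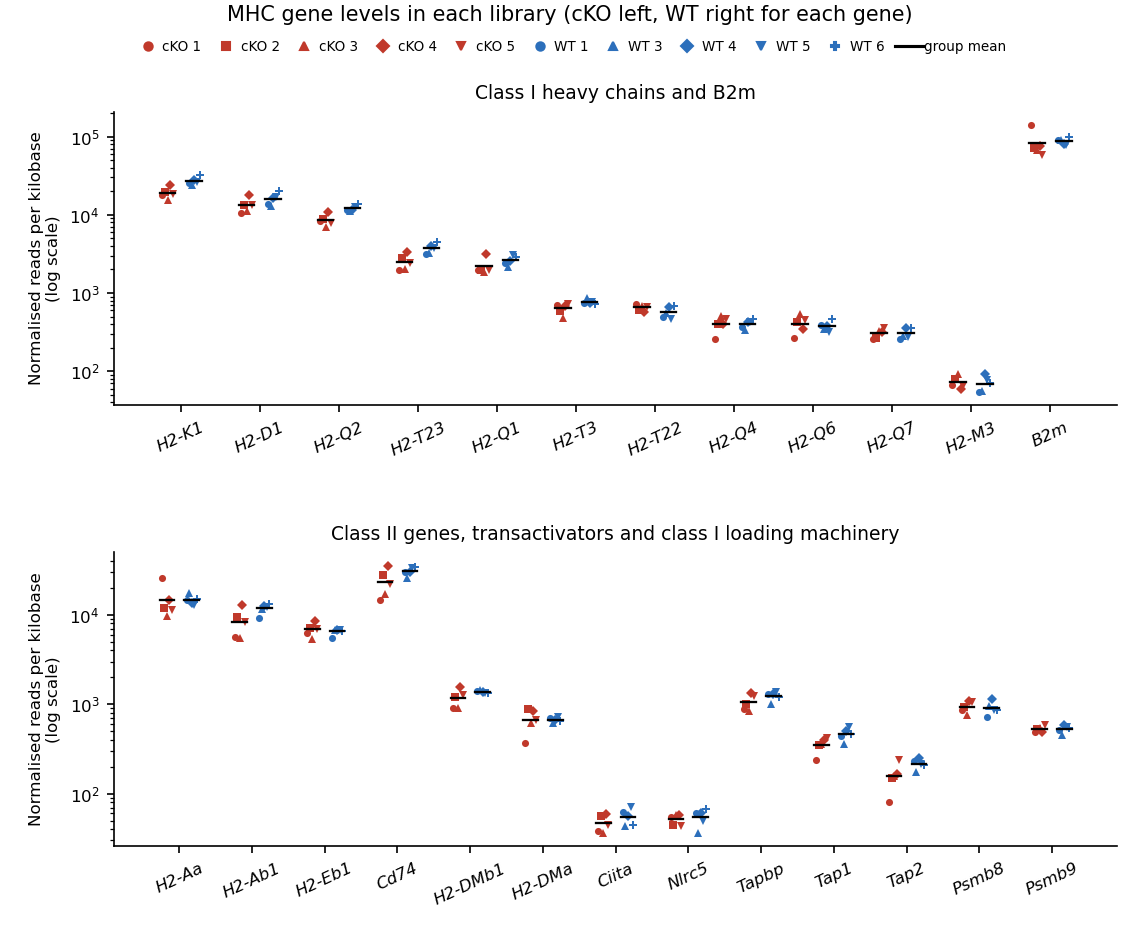
Normalised reads per kilobase (log scale) of the more abundant MHC genes, with 1 point for each library, cKO in red on the left and WT in blue on the right of each gene, and a bar at the mean of each group. H2-K1, H2-Q2 and, by a narrow margin, H2-T3 show no overlap between the groups, and the single high red circle at B2m and at H2-Aa is cKO 1.

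The comparison of cKO with WT asks whether loss of epithelial HuR goes along with a change in MHC transcripts. No member passed the test. Of the 31 members tested (H2-M9 and H2-Oa had a mean under 10 normalised reads), limma called 0 at an adjusted p under 0.05, where 1.32% of all 14062 genes were called (0.441% higher and 0.882% lower in cKO). The edgeR quasi-likelihood test also called 0, against 1.29% of all genes. DESeq2 called 3, all lower in cKO, against 5.33% of all genes: H2-K1 (adjusted p = 0.0318), H2-Q2 (adjusted p = 0.0280) and the nonclassical gene H2-T23 (adjusted p = 0.0432). At an unadjusted limma p under 0.05 there were 7 members, where 18.6% of all genes lay. They were the class I genes H2-T23, H2-Q2, H2-K1 and H2-M2, the class II gene H2-Ab1, and Tap1 and Tap2, all with a log2 fold change below 0.

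Most members lay on the lower side in cKO without passing the test. The log2 fold change was below 0 in 23 of 31 members and above 0 in 8, where 49% of all genes lay below 0. Its median was -0.24 over 14 class I genes, -0.08 over 8 class II genes and -0.23 over 9 accessory genes, beside 0.01 over all genes tested. The order of the classes turned with DESeq2, which gave -0.13 for class I and -0.32 for class II, and with edgeR (-0.13 and -0.31). The abundant class II genes moved little from limma to DESeq2: H2-Aa from -0.08 to 0.003, H2-Ab1 from -0.57 to -0.50 and H2-Eb1 from 0.07 to 0.08. Among weakly expressed genes, H2-DMb2 went from 0.16 to -0.39, H2-Eb2 from -0.08 to -0.54 and the class I gene H2-T24 from -0.19 to 0.001. Without cKO 3 and cKO 5, limma called 0 members and the medians were -0.22 for class I and -0.05 for class II. In 3 members every cKO library was below every WT library, and all were class I heavy chains (H2-K1, H2-Q2 and H2-T3), where 3.01% of all genes showed the same. In 0 members was every cKO library higher, against 1.86% of all genes. Limma fold changes were taken after adding 1 to each value, which pulls the ratios of weakly expressed genes toward 0. They also compare means of log2 values, whereas DESeq2 and edgeR fit counts, where 1 high library weighs more. For H2-DMb2 the WT median was 18.4 and the WT mean 39.1, with WT 5 at 125. The part of either point in the shifts between methods was not tested. In bulk tissue, fewer cells of a type and less RNA per cell cannot be told apart.

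**Figure D2:**
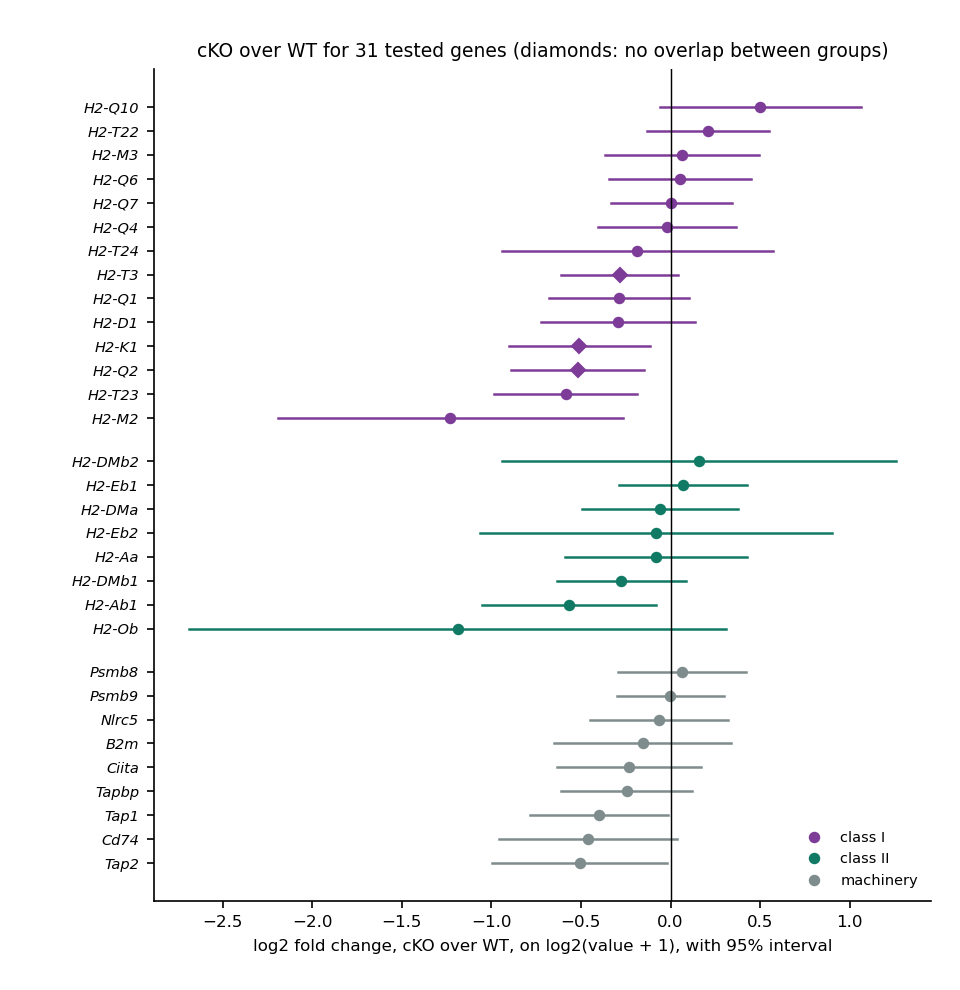
The log2 fold change of cKO over WT for the 31 tested genes on the log2(value + 1) scale, with the 95% limma interval as a line, grouped as class I, class II and accessory genes (labelled machinery). Diamonds mark H2-K1, H2-Q2 and H2-T3, whose groups did not overlap, and no gene passed an adjusted p of 0.05.

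Among the heavy chains, H2-K1 (ENSMUSG00000061232, chr17:33996017-34000333 in mm10, reverse strand) had 46653, 51111, 40671, 62572 and 48249 normalised reads in cKO 1 to 5, and 66570, 63442, 72020, 67794 and 83087 in WT 1, 3, 4, 5 and 6. The highest cKO library, cKO 4, stayed just under the lowest WT library. The cKO mean was 0.706 of the WT mean, with a log2 fold change of -0.51 (95% interval -0.90 to -0.11, limma adjusted p = 0.163) and an exact two-sided permutation p of 0.00794, the smallest that 5 against 5 allows. H2-D1 (chr17:35262730-35267499) had 26811, 34263, 29171, 45481 and 34162 in cKO, and 35061, 33674, 42587, 43689 and 52638 in WT. These groups overlapped, with 3 cKO libraries inside the WT range, and the log2 fold change was -0.29 (95% interval -0.72 to 0.13, limma adjusted p = 0.448).

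H2-Q2 lies in the Q region of nonclassical and less studied class I genes (chr17:35342242-35346762). It had 18001, 19162, 15055, 23708 and 17241 in cKO, and 24946, 24678, 25271, 27464 and 29851 in WT. As for H2-K1, cKO 4 was the highest of its group and still below all 5 WT libraries (log2 fold change -0.52, limma adjusted p = 0.138, exact permutation p = 0.00794). H2-T3 encodes the thymus leukemia antigen, which is known on intestinal epithelium and binds CD8 alpha homodimers. It had 1906, 1617, 1317, 1883 and 1974 in cKO, and 2045, 2350, 2017, 2106 and 1984 in WT. The groups were separated by a narrow margin, between 1974 in cKO 5 and 1984 in WT 6 (log2 fold change -0.28, limma adjusted p = 0.336, exact permutation p = 0.00794). Any gene whose groups do not overlap gets this permutation p at 5 against 5. For H2-K1, H2-Q2 and H2-T3 it therefore restates the separation, which 3.01% of all genes showed on the lower side.

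H2-T23 encodes Qa-1, the class I molecule seen by the CD94-NKG2 receptors of natural killer and T cells. It had 5760, 8121, 5784, 9598 and 7049 in cKO, and 9207, 9428, 11432, 10827 and 13008 in WT. Only cKO 4 reached into the WT range. It had the smallest adjusted p among the members, with a log2 fold change of -0.59 (95% interval -0.98 to -0.19, limma adjusted p = 0.121, exact permutation p = 0.0238). Without cKO 4 it passed the limma test (log2 fold change -0.69, adjusted p = 0.0423), and it was then the one member called. The adjusted p ran up to 0.342 over its other alternatives, the highest value being that without cKO 3 and cKO 5.

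The other class I genes spread on both sides. The largest positive log2 fold changes among all members were those of H2-Q10 (0.50, limma adjusted p = 0.321), which encodes a secreted class I molecule known from liver, and of H2-T22 (0.21, limma adjusted p = 0.508), a ligand of some gamma delta T cells. H2-Q10 had 148, 316, 411, 264 and 495 normalised reads in cKO, and 181, 209, 261, 188 and 236 in WT, so that 4 cKO libraries were above every WT library and cKO 1 below them all. H2-Q1 had 5706, 5673, 5294, 8981 and 5550 in cKO, and 6883, 6211, 7280.5, 8878 and 8339 in WT (log2 fold change -0.29, limma adjusted p = 0.418), with cKO 4 the highest library and the other 4 cKO libraries below all WT libraries. H2-Q4, H2-Q6, H2-Q7, the last 2 known for the Qa-2 molecule, and H2-M3, which presents formylated peptides, had log2 fold changes between -0.02 and 0.06. H2-M2 was the lowest of all members at -1.23 (limma adjusted p = 0.166) but stood at only 3.64 to 19.2 normalised reads in cKO and 9.75 to 44.9 in WT, and H2-T24 was at -0.19 with 16.0 to 72.1 in cKO and 34.8 to 57.5 in WT. H2-M9 was at or near 0 in every library, with at most 3.64. In the authors' deposited table the adjusted p was under 0.05 for 4 members, H2-T23 at 0.0219, H2-K1 at 0.0280, H2-M2 at 0.0293 and H2-Q2 at 0.0320. The share of all genes under 0.05 in that table was not counted, so these 4 cannot be set against a background. Which libraries stand behind that table was not checked, since it holds 2 further columns of per-sample values that match no label.

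The light chain differed from the heavy chains in 1 library. B2m (chr2:122147686-122153083) had 120882, 61012, 57846, 64359 and 50179 normalised reads in cKO, and 78243, 78084, 68564, 67161 and 83694 in WT. The library cKO 1 was the highest of all 10, and the other 4 cKO libraries were below all 5 WT libraries. Over all libraries the log2 fold change was -0.15 (95% interval -0.65 to 0.34, limma adjusted p = 0.758), without cKO 1 it was -0.37 (adjusted p = 0.291), and without cKO 3 and cKO 5 it was 0.059 (adjusted p = 0.935).

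The class I loading genes had log2 fold changes below 0 for the transporter and near 0 for the immunoproteasome, and none passed the test. Tap1, a chain of the peptide transporter, had 1311, 1929, 1974, 2186 and 2287 in cKO, and 2398, 1966, 2767, 3008 and 2532 in WT (log2 fold change -0.40, limma adjusted p = 0.253). Tap2, the other chain, had 304, 563, 591, 631 and 911 in cKO, and 868, 652, 936, 815 and 786 in WT (log2 fold change -0.51, limma adjusted p = 0.251). In both genes cKO 1 was the lowest of all libraries and the groups overlapped. Tapbp, which encodes tapasin, had 2903, 3288, 2764, 4344 and 4108 in cKO, and 4247, 3356, 4299, 4539 and 3953 in WT (log2 fold change -0.24, limma adjusted p = 0.462). The immunoproteasome subunit Psmb8 had 2341, 2578, 2098, 2945 and 2927 in cKO, and 1962, 2609, 3138, 2342 and 2335 in WT (log2 fold change 0.06, 95% interval -0.29 to 0.42). Its partner Psmb9 had 1797, 1944, 1966, 1807 and 2150 in cKO, and 1904, 1671, 2130, 2022 and 1959 in WT, with a 95% interval of -0.30 to 0.30. Psmb9 (chr17:34181988-34187764, reverse strand) overlaps the start of Tap1 (chr17:34187553-34197225, forward strand), so reads of the overlap cannot be assigned with certainty.

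The class II genes differed among themselves. H2-Aa, an alpha chain (chr17:34282744-34287827), had 48043, 22316, 18224, 27339 and 21156 normalised reads in cKO, and 27320, 32400, 25252, 23969 and 28041 in WT. The library cKO 1 was the highest of all, cKO 4 lay within the WT range, and the other 3 cKO libraries lay below it. The log2 fold change was -0.08 (limma adjusted p = 0.885), and -0.31 without cKO 1 (adjusted p = 0.379), but 0.18 without cKO 3 and cKO 5 (adjusted p = 0.786). H2-Ab1, the beta chain that pairs with it (chr17:34263209-34269418), had 9313, 15265, 9032, 20858 and 13704 in cKO, and 15167, 19144, 20425, 20186 and 21857 in WT. Here cKO 1 and cKO 3 were the lowest of all libraries cKO 5 was also below the WT range, and cKO 2 and cKO 4 lay within it (log2 fold change -0.57, 95% interval -1.05 to -0.08, limma adjusted p = 0.205).

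H2-Eb1, the beta chain of the other class II pair (chr17:34305877-34316199), had 7356, 8511, 6382, 10185 and 8277 in cKO, and 6565, 8033, 8062, 7999 and 7823 in WT. In this gene 3 cKO libraries were above every WT library and cKO 3 was below them all (log2 fold change 0.07, 95% interval -0.29 to 0.42). Cd74 had 20687, 38853, 23813, 49753 and 31304 in cKO, and 42190, 36182, 42527, 46902 and 48631 in WT. The lowest libraries were again cKO 1 and cKO 3, and cKO 4 was the highest of all 10 (log2 fold change -0.46, 95% interval -0.96 to 0.03, limma adjusted p = 0.303).

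The chains of the DM exchanger followed. H2-DMa had 603, 1441, 1011, 1365 and 1097 in cKO, and 1152, 1012, 1102, 1187 and 1063 in WT (log2 fold change -0.06, limma adjusted p = 0.901). H2-DMb1 had 1330, 1780, 1344, 2301 and 1891 in cKO, and 2097, 2151, 2039, 1989 and 1975 in WT (log2 fold change -0.28, limma adjusted p = 0.396). In both genes the 5 WT libraries lay close together and the cKO libraries spread to either side of them.

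The transactivators did not separate the groups. Ciita had 361, 537, 349, 570 and 430 in cKO, and 590, 414, 530, 676 and 426 in WT (log2 fold change -0.23, limma adjusted p = 0.530). Nlrc5 had 468, 380, 491, 494 and 374 in cKO, and 522, 309, 512, 424 and 575 in WT (log2 fold change -0.06, limma adjusted p = 0.883). Across the 10 libraries, 21 relations between a regulator or marker and an MHC gene were computed on log2 values, with permutation p-values from 100000 resamples adjusted over the 21. Of the Pearson correlations 0 had an adjusted p under 0.05, and 1 Spearman correlation did. This was Ciita with H2-DMa, with a rho of 0.879 (permutation p = 0.00176, adjusted p = 0.0370) and an r of 0.673 (permutation p = 0.0201, adjusted p = 0.178). Without cKO 3 and WT 5, the 2 libraries farthest from the median of Ciita, rho was 0.905 (adjusted p = 0.0867) and r was 0.798 (adjusted p = 0.115), so that both coefficients were higher over 8 libraries and neither adjusted p was under 0.05. Ciita with Cd74 gave an r of 0.786 (permutation p = 0.00529, adjusted p = 0.111) and a rho of 0.673 (adjusted p = 0.403), and r was 0.71 without the same libraries. Ciita with H2-Aa gave an r of -0.205 (permutation p = 0.591, adjusted p = 0.775) and a rho of -0.139, r was -0.594 (adjusted p = 0.461) without cKO 3 and WT 5, and without cKO 3 and cKO 5 r was -0.798 (permutation p = 0.00961, adjusted p = 0.202). Ciita with H2-DMa, without cKO 3 and cKO 5, gave a rho of 0.786 (adjusted p = 0.481) and an r of 0.753 (adjusted p = 0.221). The transcripts of Ciita (55.2% GC), H2-DMa (55.1%) and Cd74 (56.6%) are alike in GC content, and that of H2-Aa is lower at 46.5%. The libraries differ in how their values follow GC content, and its part in these correlations was not tested. Nlrc5 with H2-K1 gave an r of 0.306 and a rho of 0.479. Neither group alone has enough libraries for a correlation of its own.

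Summed over their genes, class I and class II could be compared within each library. The class I sum was 42860, 48927, 40428, 61425 and 46910 normalised reads per kilobase in cKO, and 58539, 56658, 64983, 64790 and 76226 in WT. Only cKO 4 reached the WT range. The class II sum was 38826, 30538, 22190, 38348 and 28626 in cKO, and 31533, 37862, 34824, 34123 and 36928 in WT, so that cKO libraries lay above and below the WT range. Scaled to the recovered reads of each library (RPM), the class I sum ran from 5382 to 8576 in cKO and 8213 to 10648 in WT, and the class II sum from 2688 to 3378 in cKO and 2875 to 3638 in WT.

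The ratio of class II to class I was 0.906, 0.624, 0.549, 0.624 and 0.610 in cKO, and 0.539, 0.668, 0.536, 0.527 and 0.484 in WT. Of the 5 WT libraries 4 were below all cKO libraries, and WT 3 was above 4 of them. The mean log2 ratio of the summed normalised reads was -1.27 ± 0.31 in cKO and -1.51 ± 0.18 in WT (SD, n = 5 each), a difference of 0.24. Without cKO 1 the difference was 0.10, and without cKO 3 and cKO 5 it was 0.37. It was not tested.

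**Figure D3:**
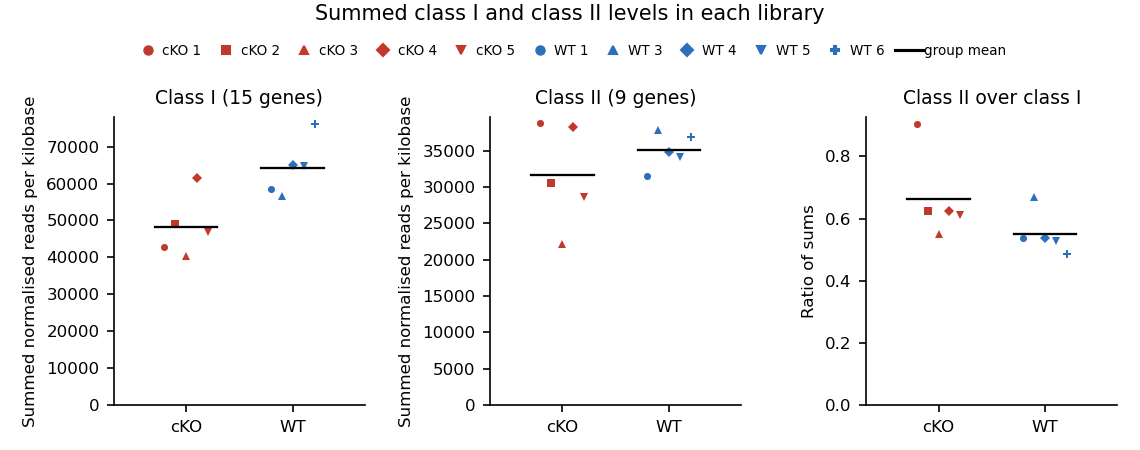
Summed normalised reads per kilobase of the 15 class I genes, of the 9 class II genes, and the ratio of class II over class I, with 1 point for each library, cKO left and WT right, and a bar at the mean of each group. Of the cKO points only cKO 4 lies in the WT range of class I, and cKO 1 has the highest ratio, 0.906.

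Partner genes parted from each other in cKO 1. The ratio of H2-Aa over H2-Ab1, alpha over beta chain per kilobase, was 4.51 in cKO 1 and 1.04 to 1.76 in the other 9 libraries. B2m over H2-K1 was 7.86 in cKO 1 and 2.89 to 4.31 in the others. Cd74 over H2-Aa was 0.572 in cKO 1 and 1.48 to 2.60 in the others, whereas Cd74 over H2-Ab1 was 2.58 in cKO 1 and 2.19 to 3.23 in the others. The 2 genes highest in cKO 1 had transcripts of low GC content, B2m at 41.2% and H2-Aa at 46.5%, and they lay 1.02 and 1.14 above the median of the other 4 cKO libraries on the log2 scale. Several genes on the low side were richer in GC, with H2-Ab1 at 57.3% (-0.64), Cd74 at 56.6% (-0.75), Tap2 at 56.9% (-1.005) and H2-DMa at 55.1% (-1.02). The lowest of all was H2-Q10 at 53.2% (-1.28). Other genes departed from this order, since the weakly expressed H2-Ob at 46.03% (-0.58) and H2-T24 at 49.0% (-0.74) were also low, and the GC-rich H2-Q2 at 58.8% (-0.01) and H2-K1 at 54.3% (-0.09) were close to the other cKO libraries. Over the 31 members the Spearman correlation of the cKO 1 deviation with GC content was -0.51, and over 14050 genes it was -0.48. Genes within a library are not independent replicates. In WT 1 the correlation over all genes was -0.42, but 0.13 over the members.

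With the GC trend of each library taken out, an alternative added after the data were seen, the log2 fold change was -0.27 for B2m (limma adjusted p = 0.457), -0.43 for H2-K1 (adjusted p = 0.159), -0.51 for H2-T23 (adjusted p = 0.0906) and -0.45 for H2-Ab1 (adjusted p = 0.173). The part of GC content in the values of cKO 1 was not tested further. One ratio, picked from several after its values were seen, kept the groups apart. H2-Ab1 over H2-Eb1, 2 beta chains, was 0.916, 1.30, 1.02, 1.48 and 1.198 in cKO, all lower than 1.67, 1.72, 1.83, 1.83 and 2.02 in WT. The groups overlapped in the other ratios computed, which were H2-Aa over H2-Ab1, B2m over H2-K1, Cd74 over H2-Aa or H2-Ab1, H2-DMa over H2-DMb1, and Tap1 over Tap2. How often a ratio of any 2 genes separates the groups was not counted, so this separation has no background.

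**Figure D4:**
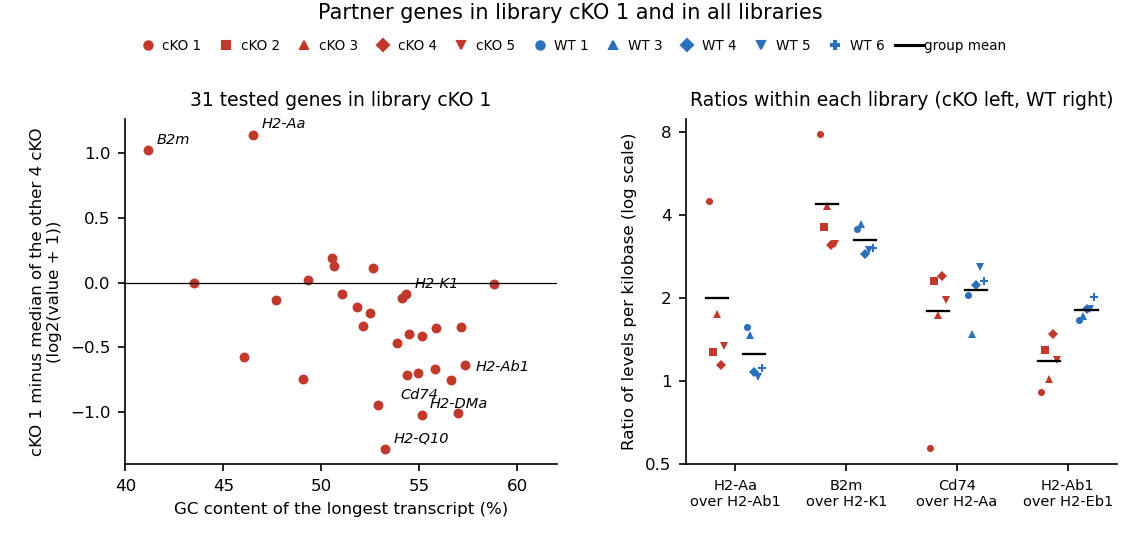
Left, the deviation of each of the 31 tested genes in cKO 1 from the median of the other 4 cKO libraries, on the log2(value + 1) scale, against the GC content of its longest transcript. Right, ratios of partner genes per kilobase (log scale) in each library, cKO left and WT right, with a bar at the mean of each group, where cKO 1 stands apart at 4.51, 7.86 and 0.572 in the first 3 ratios.

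A set of low class II genes followed the B cell markers of WT 5. H2-Oa and H2-Ob, the chains of the DO molecule that restrains DM in B cells, stood at 31.9 and 160 normalised reads in WT 5, against 1.95 to 11.1 and 3.20 to 29.4 in the other 9 libraries. H2-DMb2 stood at 125 in WT 5, against 11.1 to 37.3, and H2-Eb2 at 78.8, against 11.1 to 21.8. In the same library the B cell surface gene Ms4a1 stood at 517, against 1.07 to 28.4, the complement receptor Cr2 at 71.8, against 0 to 2.54, and the B cell factor Pax5 at 115, against 0 to 5.46. WT 5 was the highest library for 6 of 8 B cell markers, and the exceptions were Jchain and Mzb1, which mark plasma cells. The abundant class II genes did not stand out there, with H2-Aa at 23969 in WT 5, the lowest of the WT libraries. The log2 fold change of H2-Ob was -1.19 over all libraries (limma adjusted p = 0.378) and -0.48 without WT 5 (adjusted p = 0.669). That of H2-DMb2 was 0.16 (limma adjusted p = 0.896) and 0.72 without WT 5 (adjusted p = 0.315), and edgeR placed it at -0.39.

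**Figure D5:**
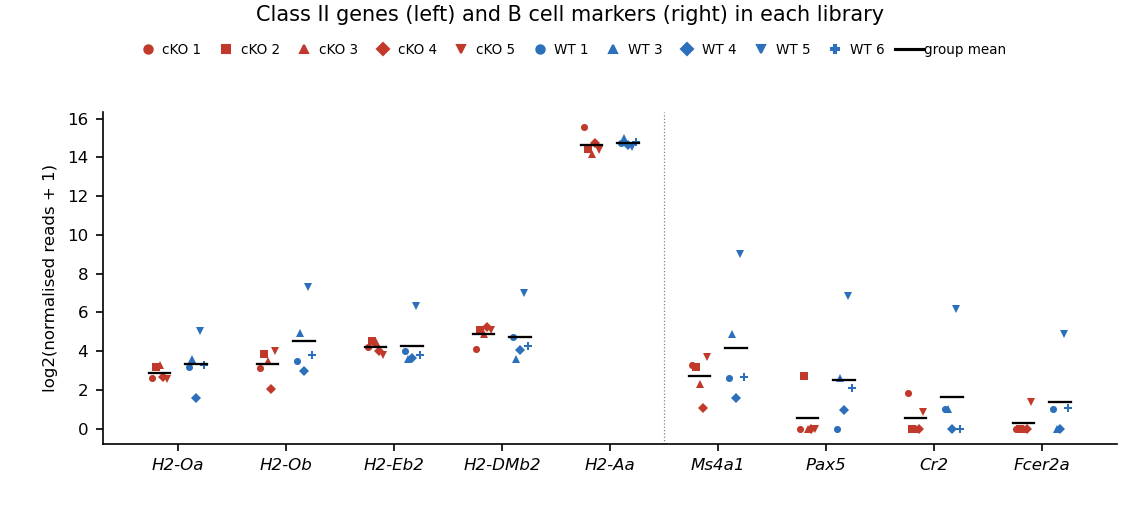
Values of 5 class II genes (left of the dotted line) and of 4 B cell markers (right of it) as log2(normalised reads + 1), with 1 point for each library, cKO left and WT right of each gene, and a bar at the mean of the log2 values of each group. The high blue triangle at H2-Oa, H2-Ob, H2-Eb2 and H2-DMb2 and at all 4 markers is WT 5, while H2-Aa in WT 5 lies with the other libraries.

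Other genes of the pathway showed few differences. Of 19 further antigen processing genes 0 passed the limma test, 6 had an unadjusted p under 0.05 (18.6% over all genes tested), and the median log2 fold change was 0.08. The smallest p-values were those of Ifi30, a thiol reductase that opens proteins for class II loading, with a log2 fold change of -0.49 (limma adjusted p = 0.108), the MHC class I related gene Mr1, which presents vitamin B metabolites (0.77, adjusted p = 0.128), and the tapasin relative Tapbpl (-0.45, adjusted p = 0.135). Of 15 genes of the class II enhanceosome and the interferon gamma pathway 1 passed, where 0.882% of all genes were called lower in cKO. An unadjusted p under 0.05 was found for 4 of the 15, beside 18.6% of all genes. Ifngr2, a chain of the interferon gamma receptor, fell to 2355, 2976, 2476, 2869 and 2725 in cKO, against 3961, 4912, 3950, 4209 and 4769 in WT. All cKO libraries were below all WT libraries, as for 3.01% of all genes. The log2 fold change of Ifngr2 was -0.70 (limma adjusted p = 0.0346, edgeR adjusted p = 0.0378). It kept its sign, from -0.74 to -0.59, under all 21 alternatives, and the call was lost under 12 of them (adjusted p up to 0.117), among them leaving out WT 1, 3, 4, 5 or 6, or cKO 3 or 5, alone. The other receptor chain, Ifngr1, had 3637, 2424, 2589, 3432 and 3436 in cKO, and 2055, 2194, 1750, 1745 and 2341 in WT. Its groups did not overlap either, on the higher side in cKO, as for 1.86% of all genes. It did not pass (log2 fold change 0.61, limma adjusted p = 0.0830). The Y box subunit Nfyc had a log2 fold change of -0.43 (adjusted p = 0.139). The median over the 15 genes was -0.07. Of 7 costimulation genes 5 were tested, and 0 passed the limma test (2 at an unadjusted p under 0.05, median 0.29).

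Markers of the cell types that can carry MHC were set beside these values. Of the 10 epithelial markers 0 passed the limma test (0 at an unadjusted p under 0.05, median log2 fold change -0.17), and their sum ran from 278375 to 700531 in cKO and 495843 to 595804 in WT, lowest in cKO 3 and highest in cKO 4. Of the 10 jejunal enterocyte markers 0 passed (5 at an unadjusted p under 0.05, beside 18.6% of all genes, median -0.41), with sums of 795673 to 1599200 in cKO and 1125250 to 1299940 in WT. Of the 15 markers of dendritic cells and macrophages 12 were tested and 0 passed (1 at an unadjusted p under 0.05, median 0.19), with sums of 3666 to 5575 in cKO and 3297 to 5844 in WT. Of the 8 B cell markers 6 were tested and 0 passed (1 at an unadjusted p under 0.05, median -0.75), with sums of 10333 to 42184 in cKO and 15450.5 to 28554 in WT, most of it Jchain. Of the 10 T and natural killer cell markers 0 passed (1 at an unadjusted p under 0.05, median 0.05), with sums of 9579 to 17449 in cKO and 9946 to 11154 in WT. Ptprc, the common leukocyte gene, ran from 514 to 987 in cKO and 716 to 941 in WT. Of 8 endothelial and stromal markers 3 rose (Lyve1, Col3a1 and Col1a1, median over the 8 of 0.62), where 0.441% of all genes were called higher, with sums of 6217 to 9536 in cKO, all higher than the 4345 to 5364 in WT. Lyve1 was called under all 21 alternatives, Col3a1 under 15 and Col1a1 under 14, both losing the call without WT 1, 3, 4 or 5, or without cKO 3, and Col1a1 also without cKO 5. No list had a member at 0 in every library. The part of cell composition in the MHC values was not tested.

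HuR is known for binding AU-rich elements in 3′ untranslated regions, and these letters were counted in the members. The pentamer ATTTA was present in the 3′ untranslated region of the longest coding transcript (GENCODE M21) of 15 of 33 members, 45.5%, against 69.9% of 12814 protein-coding genes tested. It was present in 7 of 15 class I, 4 of 9 class II and 4 of 9 accessory genes. H2-K1, H2-D1, H2-Q2 and H2-T23 had none, nor did H2-Aa, H2-Ab1 and Cd74, while B2m and Tap1 had 1 each. Among other members with a log2 fold change below 0, H2-T3 had 1, H2-M2 had 3, H2-Ob had 4 and H2-Q1 had 5. The regions were also shorter, with a median of 479 bases in the members and 1205.5 over the genes tested, and a match does not show binding.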

How the data were processed

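RNA sequencing of mouse proximal jejunum gave 10 libraries, 5 cKO and 5 WT by their labels. Per the submitters' processing notes, CASAVA, HISAT2 2.0.5, featureCounts 1.5.0-p3, DESeq2 1.20.0 and the build mm10 were used. The deposited table holds per gene a normalised signal, which the values show to be reads of each library divided by its size factor (counts can be recovered), and all values were whole reads within 0.001 once divided by the library's step. It also holds the authors' log2 fold change, p-value and adjusted p-value, copied only where named. A further 2 columns of per-sample values match no label and were not used.

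Genes with a mean of 10 or more (14062 of 24368) were tested on log2(value + 1) with limma 3.58.1 in R 4.3.3 (genotype alone, trended and robust moderation, Benjamini-Hochberg over all genes, threshold 0.05). Alternatives were edgeR 4.0.16 with TMM factors or library totals and DESeq2 1.42.0 on recovered reads, other filters and pseudocounts, voom with quality weights, a replicate block over the 8 libraries with shared numbers, each library left out, and cKO 3 with cKO 5 left out; a GC correction was added after the data were seen. Single genes also had an exact two-sided permutation test. P-values measure the spread between these samples. Limma and edgeR were tested on simulated data, 5 libraries against 5. Limma recovered 47.3% of 2-fold and 91.3% of 4-fold changes, and edgeR 48.7% and 92%. Of the calls of each, 4.1% were false. Changes under 2-fold were not simulated, and a gene that did not pass can still differ. Within a group, no pair of libraries was a near copy (chi-square over degrees of freedom at least 21.4).

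The members and lists were chosen with earlier results of these data known. Classes were set by symbol. Genes given in full are the main chains, transactivators, loading genes and DM chains, and any member called or without overlap; the 3 largest and 3 smallest fold changes are also named, as are list genes called and, for 2 lists, those with the smallest p. The symbols of March1 and March8 are stored as dates and were matched by gene ID. One marker of a list is not reported here. Gene lengths and coordinates are those of the deposited table, and promoters are RefSeq's. Motifs were counted over promoter windows of up to 250 bases before the start. Plots used Python 3.11.15 with matplotlib 3.10.9.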

Additional observations from a re-analysis of the deposited data

Results flagged for a closer look

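A library stood far from the others of its group, by Dixon's test at the 95% level, in 6 of the 62 sets of 5 values examined (31 genes in 2 groups). Chance flags about 1 in 20 sets of independent normal values. These values were not log-transformed, the genes are not independent, and the share over all genes is not given. The 6 can therefore not be read as an excess over chance. Class II genes that are low in the tissue were flagged for WT 5, where H2-Ob was at 160 (6.82 to 29.4 in the other WT libraries), H2-DMb2 at 125 (11.1 to 25.6) and H2-Eb2 at 78.8 (11.1 to 15.3). B2m was at 120882 in cKO 1, with 50179 to 64359 in the other cKO libraries. H2-Q1 was at 8981 in cKO 4, with 5294 to 5706 in the others. H2-Eb1 was at 6565 in WT 1, the lowest of its group, with 7823 to 8062 in the others. Of the ratios, cKO 1 was the highest of its group for H2-Aa over H2-Ab1 (4.51, others 1.14 to 1.76), for B2m over H2-K1 (7.86, others 3.12 to 4.31) and for the log2 ratio of class II over class I (-0.72, others -1.53 to -1.34).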

How the results depend on the processing

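Of the 24 members followed through the 21 fitted alternatives (those picked by the rule for named genes), 16 kept the sign of their log2 fold change in all of them, H2-K1, H2-Q2, H2-T23, H2-T3, H2-Ab1 and Cd74 among them. Without cKO 3 and cKO 5, the libraries low in Per2, H2-K1 had an adjusted p of 0.381. The count of all genes called was 186, and it was 750 with DESeq2, 303 with the GC trend taken out, 56 without cKO 3 and cKO 5, and 30 to 611 when 1 library was left out. Members called were 3 with DESeq2 and 0 to 1 when 1 library was left out. The class II median was -0.32 with DESeq2 and -0.31 with edgeR and TMM factors, the class I median was -0.023 with edgeR and library totals, and leaving out 1 library gave -0.28 to -0.15 for class I, -0.19 to -0.04 for class II and 0.10 to 0.31 for the difference of the log2 class ratio. With these shifts class I did not stay lower than class II in every fit, and the cause was not tested.

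Signs turned for genes near 0, and for the weakly expressed H2-DMb2, which stood at 125 in WT 5 and 11.1 to 37.3 in the other libraries. DESeq2 gave H2-Aa 0.0027, Psmb9 0.00081, H2-DMa 0.0043 and H2-DMb2 -0.39. EdgeR with TMM factors gave H2-Aa 0.00062, Psmb9 0.0047, H2-DMa 0.0099 and H2-DMb2 -0.39. EdgeR with library totals gave H2-Aa 0.043, Nlrc5 0.028, Psmb9 0.12, H2-DMa 0.13 and H2-DMb2 -0.28. The GC correction gave Psmb9 0.071 and H2-DMa 0.031, and voom gave Psmb9 0.014 and H2-DMa 0.070. Without cKO 3 and cKO 5, B2m was at 0.059 and H2-Aa at 0.18. Leaving out 1 library gave ranges of -0.31 to 0.042 for H2-Aa, -0.017 to 0.15 for H2-Eb1, -0.21 to 0.018 for Nlrc5, -0.017 to 0.15 for Psmb8, -0.054 to 0.034 for Psmb9, -0.17 to 0.14 for H2-DMa and -0.12 to 0.72 for H2-DMb2. Without the 2 farthest libraries, the correlation r of B2m with Cd74 was 0.490 (-0.244 over all 10) and that of Epcam with H2-Aa was -0.041 (0.524 over all 10). Without cKO 3 and cKO 5, B2m with Cd74 gave -0.801, Epcam with H2-Aa -0.041, H2-K1 with H2-Aa -0.457 (0.159 over all 10) and Ptprc with H2-Aa 0.325 (-0.016 over all 10).

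Same-numbered libraries did not deviate together (correlations of 0.118, 0.0218, -0.105 and 0.0957), so the numbers were not taken as pairs. The replicate block over 8 libraries called 134 genes, and the same 8 libraries without the pairing called 89, with 0 members in either. Both fits gave Nlrc5 0.069, Psmb9 0.00037 and H2-DMb2 -0.00047. At 5 libraries a group, a log2 fold change near -0.5 with the spread of H2-K1 did not pass. Low counts limit H2-M2, H2-M9, H2-T24, H2-Oa, H2-Ob, H2-Eb2 and H2-DMb2.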

Other observations

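The table also holds 6 genes with an H2- symbol that are annotated as pseudogenes, and 1 of them fell. Over all genes tested, 0.882% were called lower in cKO. H2-Bl, a class I gene annotated as a polymorphic pseudogene, had 242, 279, 136, 272 and 159 normalised reads in cKO, all lower than 285, 412, 542, 496 and 551 in WT, with a log2 fold change of -1.09 (95% interval -1.59 to -0.59, limma adjusted p = 0.0363, edgeR adjusted p = 0.0372, DESeq2 adjusted p = 0.00198). The call was lost under 9 of 21 alternatives (adjusted p up to 0.190), among them leaving out WT 3, 4, 5 or 6, or cKO 3 or 5, alone, and the log2 fold change stayed between -1.25 and -0.75. H2-K2, an unprocessed pseudogene, also had every cKO library lower than every WT library, at 22.9 to 49.1 in cKO and 49.6 to 80.1 in WT. It did not pass (log2 fold change -0.71, limma adjusted p = 0.158), and 3.01% of all genes had such a separation on the lower side. Both resemble the expressed class I genes in sequence, so reads cannot be assigned with certainty.

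Of the costimulation genes, Cd40, which helper T cells engage on presenting cells, had 38.1, 36.4, 87.2, 59.7 and 39.3 normalised reads in cKO, all higher than 11.3, 6.08, 30.2, 33.9 and 23.8 in WT (log2 fold change 1.41, limma adjusted p = 0.104). Every cKO library was higher in 1.86% of all genes. Cd40 is named after its values were seen and did not pass the test.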
